A study of Mus musculus with 6 samples.

Results

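Myc, Mycn and Mycl encode the Myc transcription factors, which bind DNA as dimers with the protein Max, and these genes were examined here together with Max and with the genes of the other proteins that pair with Max or with its relative Mlx. The 10 members are Myc, Mycn, Mycl, Max, Mxd1, Mxd3, Mxd4, Mxi1, Mnt and Mlx, and they were chosen by name. All probes that the platform's annotation assigns to these symbols were taken, which gave 17 of the 45281 probes of the array. Of these, 8 probes from 6 members were detected on enough arrays to be tested, against 19590 probes and 10603 genes tested in all. Mycn, Mxd3, Mnt and Mlx had no testable probe.

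RNA was taken from surface ectoderm (SE), the single-layered epithelium that gives rise to the epidermis, and from neural ectoderm (NE), the neural plate that closes into the neural tube. Both tissues came from the forebrain level of wild-type CD-1 mouse embryos labelled E8.5, were separated with pancreatin and trypsin and fine needles, and carried no transgene or mutation. Each tissue was measured on 3 one-colour Illumina arrays, each from an independent pool of many embryos, so that variation between single embryos was not measured. The study asked which pathways and transcription factors separate the SE fate from the NE fate.

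Myc and Max heterodimers bind the E-box sequence CACGTG and recruit histone acetyltransferases and the elongation machinery to genes of ribosome biogenesis, metabolism and cell division. Mxd and Mnt proteins, with Mxi1 as a further Mxd member, compete for Max and bring in Sin3 corepressors at the same sites, and their genes tend to rise when cells leave the cycle. Mlx pairs with some Mxd proteins, with Mnt and with the glucose-sensing Mondo proteins. In the mouse, Mycn is needed for midgestation development and is best known from neural progenitors, Myc is used widely in dividing tissues, and Mycl is dispensable for development.

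Across the array, 18916 to 19068 probes were detected on the SE arrays and 19174 to 19402 on the NE arrays, where detected means that the scanner software's detection p was under 0.05. Probes that were not detected had a median raw signal between 54.4 and 57.7 on the 6 arrays, which marks the background of the raw values given here. Of the surface ectoderm markers, 6 of 6 tested genes were higher in SE, and of the neural ectoderm markers, 5 of 5 tested genes were lower in SE (Epcam, Sox1 and Cdh2 were not testable). Markers of other cell types also differed, and their summed signals are given after background correction and normalization, on a linear scale that is lower than the raw one. The methods describe the dissected tissue as free of cephalic mesenchyme. All 7 tested cephalic mesenchyme genes of 10 listed were higher in SE, with a summed signal of 1637 to 2347 on the SE arrays and 375 to 515 on the NE arrays, although the probes of the defining genes Col1a1 and Col3a1 did not pass the detection filter and Prrx2 was not analysed here. Blood and endothelium genes were higher in SE for 4 of 5 tested genes of 9 listed, with sums of 3362 to 5993 in SE and 616 to 1664 in NE. The 4 were the blood genes Hbb-y, Hba-x, Hbb-bh1 and Klf1. The endothelial gene Tek did not pass (0.28, limma adjusted p = 0.202), and Gata1, Kdr, Pecam1 and Cdh5 could not be tested. Neural crest genes were higher in SE for 3 of 3 tested genes, with sums of 2224 to 2471 in SE and 545 to 927 in NE. Of the endoderm markers only Foxa2 could be tested, and it was lower in SE, with raw signals of 44.9 to 49.2 on the SE arrays, none of which detected it, and 83.5 to 94.6 on the NE arrays, all of which did. Of the heart markers, 1 of 2 tested genes was higher in SE, with sums of 64.9 to 76.1 in SE and 56.5 to 58.8 in NE. The part of these cells in the differences described here was not tested, and in bulk tissue fewer cells of a type and less RNA per cell cannot be told apart.

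Among the 6 testable members, Mxd1 and Mxd4 were higher in SE, Mycl was lower in SE, and Myc, Max and Mxi1 did not pass the test. The threshold was an adjusted p under 0.05 in limma's moderated test across all probes. Of all genes tested in this way, 40.3% passed, 18.7% as higher in SE and 21.6% as lower in SE, so that 3 of 6 members is a share that can be read only against a background in which a large part of the genes differed. The median log2 difference of SE minus NE was -0.0072 over the 6 members and -0.021 over all genes. By probe, 5 of the 8 tested member probes passed, 4 as higher and 1 as lower, where 37.3% of all tested probes passed, 17.1% as higher in SE and 20.2% as lower in SE (3352 and 3958 probes). When arrays were centred on their medians in place of quantiles, 2547 probes were higher and 4817 lower, and no member was called higher by the probe that stands for its gene, although the third Mxd4 probe still passed. The count of higher members was 1 without SE replicate 1 or without any 1 NE array, and the count of lower members was 2 without NE replicate 2.

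**Figure D1:**
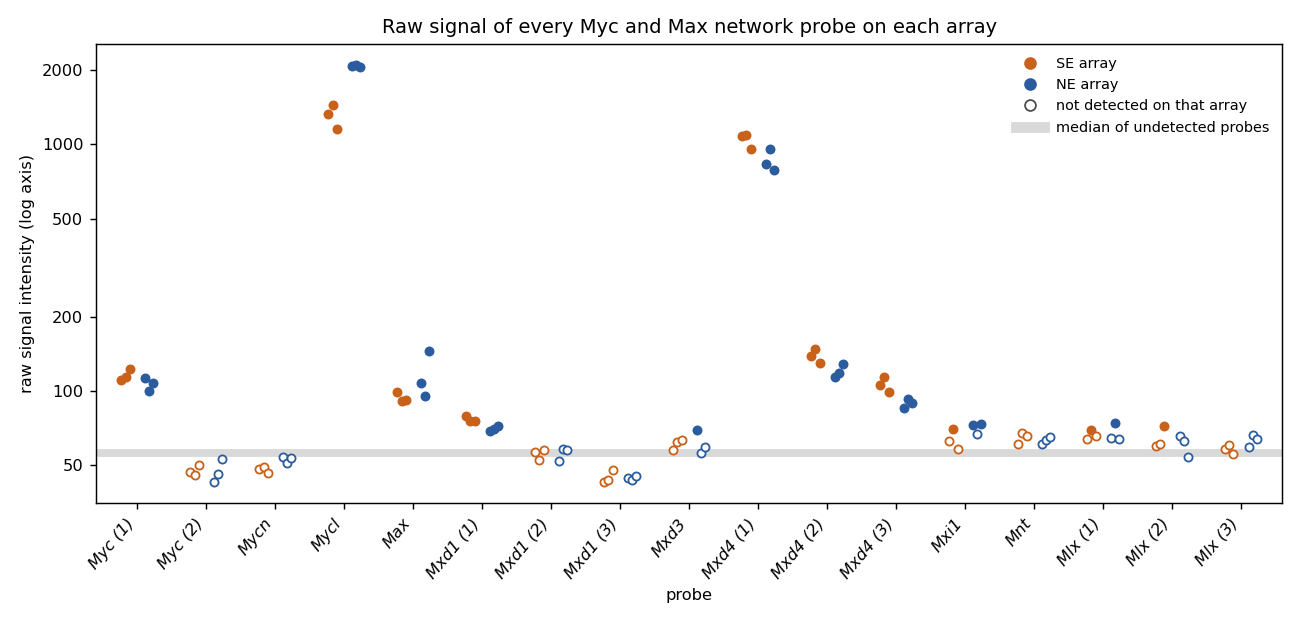
Raw signal intensity (log axis) of each of the 17 member probes on the 3 SE arrays (orange) and the 3 NE arrays (blue), with open circles where the probe was not detected on that array. The grey band spans the median signal of undetected probes, and only Mycl and the first Mxd4 probe stand far above it, while the second Myc probe and the Mycn probe lie below it on all 6 arrays.

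The family of Myc genes itself was represented by 4 probes. Myc is the broadly used growth regulator of the family, and its first probe gave raw signals of 111.4, 113.6 and 122.8 on the SE arrays and 113.3, 100.2 and 107.9 on the NE arrays. The probe was detected on all 6 arrays, and the ranges overlapped through the first NE array. On the normalized log2 scale Myc averaged 6.27 ± 0.16 in SE and 6.00 ± 0.17 in NE (SD, n = 3 each). The difference was 0.27 (standard error 0.12, 95% confidence interval -0.0086 to 0.55) with a limma adjusted p of 0.116. The data therefore left room for a Myc level in SE anywhere from slightly below the NE level (by 0.0086 log2 units) to 0.55 log2 units above it. The second Myc probe gave 45.8 to 50.1 in SE and 42.7 to 52.9 in NE, was not detected on any array and was not tested.

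Mycl, the third gene of the family, was lower in SE. Its probe gave raw signals of 1327, 1450 and 1151 on the SE arrays and 2082, 2102 and 2066 on the NE arrays. All 3 SE arrays lay below all 3 NE arrays, and the NE arrays were close to one another. The log2 values averaged 10.35 ± 0.09 in SE and 10.95 ± 0.03 in NE (SD, n = 3 each), a difference of -0.59 (standard error 0.078, 95% confidence interval -0.77 to -0.41), which is 1.51-fold, with a limma adjusted p of 8.02e-04. Mycl passed the threshold in the same direction under all 15 other settings tried, with differences between -0.68 and -0.55.

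The promoter window of Mycl is shown because Mycl was the member with the largest difference. The window runs from 250 bases before to 50 bases after the start of the RefSeq gene, at chr4:122995681-122995980 on the plus strand of GRCm38.p6, and capitals mark CACGCG, a variant of the E-box that Myc and Max also bind, 20 bases before the start site.
Mycl promoter: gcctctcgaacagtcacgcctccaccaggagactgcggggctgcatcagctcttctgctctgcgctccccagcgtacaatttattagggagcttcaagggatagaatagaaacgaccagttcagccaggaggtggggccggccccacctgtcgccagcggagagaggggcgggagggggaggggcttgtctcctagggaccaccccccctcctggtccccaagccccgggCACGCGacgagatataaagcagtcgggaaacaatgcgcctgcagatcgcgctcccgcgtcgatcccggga

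Mycn, which is known as the neural progenitor gene of the family, was not detected. Its single probe gave raw signals of 48.6, 49.4 and 46.8 on the SE arrays and 54.1, 51.1 and 53.4 on the NE arrays. On every array the value was below the median of undetected probes, and the lowest detection p on any array was 0.532. Mycn was therefore not tested, and the probe gives no level for either tissue. Whether Mycn RNA was present at a level or in a part of the transcript that this probe does not report was not tested.

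The change in the balance of the Myc genes was also read within each array, as the log2 value of Myc minus that of Mycl. This measure was chosen after the values of both genes had been seen, and it compares the tissues, not the levels of the 2 genes. It was -4.18, -4.27 and -3.81 on the SE arrays and -4.78, -5.08 and -4.98 on the NE arrays, without overlap. The difference between the tissues was 0.86, with a two-sided exact permutation p of 0.1, the smallest that 3 arrays against 3 allow. Mycl alone already separated the tissues when the measure was chosen, so this p adds no support beyond the Mycl difference. Myc minus Mycn was the measure planned at first. Its values were 1.91, 1.94 and 2.25 on the SE arrays and 1.83, 1.59 and 1.63 on the NE arrays. The difference was 0.35 with an exact permutation p of 0.1. Because the Mycn probe was not detected, the second measure sets Myc against background and carries no information on Mycn.

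The genes whose profile over the 6 arrays lay closest to that of Myc, by the Euclidean distance of centred log2 values among 10602 other genes, were Hps1, a gene of lysosome-related organelles, Ube2j2, a ubiquitin-conjugating enzyme, and Nubp2, a nucleotide-binding protein gene, at distances of 0.107, 0.117 and 0.127. The genes closest to Mycl were Pold3, the zinc finger gene Zfp317 and Ice2, a subunit of an elongation complex for small nuclear RNA genes, at 0.0324, 0.0562 and 0.0657. Pold3 encodes a subunit of DNA polymerase delta, and its own difference was -0.59, against -0.59 for Zfp317 and -0.57 for Ice2. These distances are a description over 6 arrays in 2 tissues, with no test.

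Max, the common partner of the Myc, Mxd and Mnt proteins, gave raw signals of 99.0, 91.3 and 92.5 on the SE arrays and 108.2, 95.3 and 146.1 on the NE arrays. The third NE array stood above all others, and the second NE array lay within the SE range. On the log2 scale Max averaged 5.76 ± 0.12 in SE and 6.14 ± 0.43 in NE (SD, n = 3 each). The difference of -0.38 (standard error 0.20, 95% confidence interval -0.84 to 0.082) did not pass, with a limma adjusted p of 0.175. The value rested on single NE arrays. Without NE replicate 2 the difference was -0.58 and passed, with a limma adjusted p of 0.0337, and without NE replicate 3 it was -0.15, with a limma adjusted p of 0.423.

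Mxd4, the antagonist for which the array carries most tested probes here, was higher in SE by each of its 3 probes. The first probe gave raw signals of 1083, 1091 and 960 on the SE arrays and 832, 956 and 785 on the NE arrays. The second gave 138.9, 148.1 and 130.1 in SE and 113.7, 118.0 and 129.0 in NE, and the third gave 106.4, 113.7 and 99.6 in SE and 85.5, 92.7 and 89.8 in NE. For none of the probes did the tissues overlap, although for the first 2 the lowest SE array and the highest NE array lay close together in raw signal. The log2 difference of the first probe was 0.40 (standard error 0.097, 95% confidence interval 0.18 to 0.63, limma adjusted p = 0.0138). It was 0.39 for the second probe (standard error 0.080, limma adjusted p = 0.00670) and 0.51 for the third (standard error 0.093, limma adjusted p = 0.00397), or 1.32-, 1.31- and 1.43-fold. The probes were assigned to 1 gene and read the same RNA samples, so that they are not independent replicates. No accession is given for the first probe in the annotation, and whether it reports the same transcript as the other 2 was not tested. When arrays were centred on their medians in place of quantile normalization, the first and second probes just missed the threshold, with adjusted p of 0.0514 and 0.0501, and the third passed in all 15 other settings.

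Mxd1, an antagonist gene linked to the end of proliferation in differentiating epithelia, was also higher in SE, by a small amount. Its first probe gave raw signals of 79.0, 75.5 and 75.5 on the SE arrays and 68.7, 70.0 and 72.6 on the NE arrays. All SE arrays lay above all NE arrays, but both lay near background, and the detection p on the NE arrays was between 0.0227 and 0.0335. The log2 difference was 0.28 (standard error 0.082, 95% confidence interval 0.089 to 0.47), with a limma adjusted p of 0.0302. The call was lost under 9 of 15 other settings, where the adjusted p ranged up to 0.125. Among them, it was lost without SE replicate 1 (0.22, limma adjusted p = 0.0919) and without NE replicate 1, 2 or 3 (0.28, 0.27 and 0.28, limma adjusted p = 0.0718, 0.0767 and 0.0641). With the replicate number as a block the difference was 0.28 and the limma adjusted p 0.0621. The other 2 Mxd1 probes, with 42.9 to 57.9 in SE and 43.7 to 58.1 in NE, were not detected on any array.

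The promoter windows of the 2 antagonists that were higher in SE are shown for comparison. They lie on the minus strand of GRCm38.p6, at chr5:34187661-34187960 for Mxd4 and chr6:86669110-86669409 for Mxd1, and are printed in the direction of the gene. Capitals mark a CACGTG E-box in the Mxd4 window, 219 bases before the start site, while the Mxd1 window held neither CACGTG nor CACGCG.
Mxd4 promoter: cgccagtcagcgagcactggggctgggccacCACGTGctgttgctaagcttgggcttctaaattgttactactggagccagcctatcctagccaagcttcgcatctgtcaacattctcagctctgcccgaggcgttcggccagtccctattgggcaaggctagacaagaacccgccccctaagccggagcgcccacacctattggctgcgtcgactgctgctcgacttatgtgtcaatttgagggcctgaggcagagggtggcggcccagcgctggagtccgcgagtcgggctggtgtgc
Mxd1 promoter: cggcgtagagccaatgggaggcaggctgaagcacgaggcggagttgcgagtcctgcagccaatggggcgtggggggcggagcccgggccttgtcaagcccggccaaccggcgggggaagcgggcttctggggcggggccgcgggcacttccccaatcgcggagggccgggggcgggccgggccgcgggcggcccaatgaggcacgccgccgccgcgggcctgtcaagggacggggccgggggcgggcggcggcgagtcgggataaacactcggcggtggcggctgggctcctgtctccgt

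**Figure D2:**
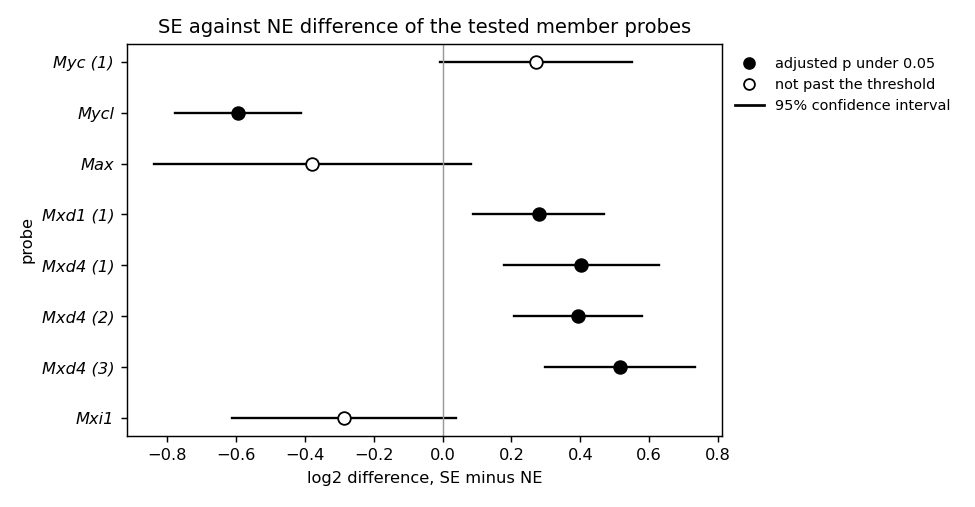
Log2 difference of SE minus NE for the 8 tested member probes, with 95% confidence intervals and filled points where the adjusted p was under 0.05. Mycl lies at -0.59, the 3 Mxd4 probes lie between 0.39 and 0.51, and the intervals of Myc, Max and Mxi1 include 0.

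The remaining antagonists were near background. Mxi1 gave raw signals of 63.1, 70.5 and 58.3 on the SE arrays and 73.2, 67.2 and 73.4 on the NE arrays, and its probe was detected on 1 SE array and 2 NE arrays. The tissues overlapped, and the log2 difference of -0.28 (standard error 0.14, 95% confidence interval -0.61 to 0.041) did not pass, with a limma adjusted p of 0.151. It was -0.17 without SE replicate 3 and -0.09 with the deposited scaled values (limma adjusted p = 0.388 and 0.393). Mxd3, an Mxd gene linked to S phase, gave 57.6, 62.4 and 63.2 in SE and 69.9, 56.1 and 59.3 in NE, and was detected on the first NE array alone, with a detection p of 0.0163. Mnt, the most widely expressed antagonist, gave 61.2, 68.0 and 65.7 in SE and 61.1, 63.4 and 65.0 in NE and was not detected on any array, with a lowest detection p of 0.0763.

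Mlx, which takes the place of Max in a parallel branch of the network, had 3 probes, none of which was tested. The first gave 64.1, 69.6 and 65.7 in SE and 64.4, 74.4 and 64.0 in NE, and was detected on the second array of each tissue. The second gave 59.7, 61.0 and 72.0 in SE and 66.1, 62.9 and 54.2 in NE, and was detected on the third SE array alone. The third gave 58.2, 60.4 and 55.9 in SE and 59.7, 66.5 and 64.1 in NE and was not detected. In all, the 9 untested member probes had raw signals between 42.7 and 74.4, and 6 of them were not detected on any array, 2 on 1 array and 1 on 2 arrays. Being not detected does not show that a transcript was absent.

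Promoter windows from RefSeq were used for 9 of the 10 members (all but Myc), 11 windows in all, with 3 for Mxi1. CACGTG, which reads the same on both strands, was present in the windows of 4 of 9 members (Max, Mxd4, Mnt and Mlx), and in those of 8.09% of all 27025 genes. CACGCG, searched also as CGCGTG for the opposite strand, was present in 1 of 9 members (Mycl) and in 10.5% of all genes. The members with CACGTG include 1 that was higher in SE, 1 that did not pass and 2 that could not be tested. Stretches of 50 bases around the match are shown for Max, Mnt and Mlx to compare the flanks of the E-box, in capitals, which begins 3, 123 and 40 bases before the start site. They lie at chr12:76962224-76962273 on the minus strand, chr11:74830779-74830828 on the plus strand and chr11:101087228-101087277 on the plus strand of GRCm38.p6.
Max E-box: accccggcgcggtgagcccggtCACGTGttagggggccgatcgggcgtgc
Mnt E-box: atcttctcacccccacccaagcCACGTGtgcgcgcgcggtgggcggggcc
Mlx E-box: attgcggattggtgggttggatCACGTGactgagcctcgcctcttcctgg

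A match in these letters is a description of the sequence and not of binding, which was not measured.

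Genes that act with, on or after the network were read from 6 lists. The list of Mlx and Max partners outside the family also holds the Mondo targets Txnip and Arrdc4, and 4 of its 5 genes could be tested. Of these 4, 2 were lower in SE and none was higher, with a median difference of -0.43. The shares of 0% higher and 50% lower rest on 4 genes, where 18.7% and 21.6% of all genes were called. Txnip, a glucose-responsive target of Mondo and Mlx that limits glucose uptake, had log2 values of 9.85, 9.94 and 9.82 in SE and 10.34, 10.29 and 10.66 in NE, a difference of -0.56 (standard error 0.11, limma adjusted p = 0.00579), and its 2 tested probes differed by -0.58 and -0.56. Mlxip, which encodes MondoA, had 6.72, 6.78 and 6.89 in SE and 7.15, 7.32 and 7.42 in NE, a difference of -0.50 (standard error 0.094, limma adjusted p = 0.00484). For both genes all SE arrays lay below all NE arrays. Arrdc4, a further Mondo target, differed by -0.19 (limma adjusted p = 0.205) and Mga, which pairs with Max, by -0.36 (limma adjusted p = 0.132), while a second Mga probe passed with -0.73. Mlxipl was not testable.

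The Sin3 corepressor complex, through which Mxd and Mnt proteins act, had members on both sides. Of 8 tested genes of 11 listed, 1 was higher in SE, 2 were lower and 5 did not pass, with a median of -0.12. The shares were 12.5% higher and 25% lower, where 18.7% and 21.6% of all genes were called. Among the 5 that did not pass, the histone-binding gene Rbbp4 differed by 0.06 at the probe that stands for it. However, 2 of its 3 tested probes were called lower, down to -0.80. With the mean of a gene's probes, 3 genes of the list were lower. Rbbp7, a histone-binding subunit, had log2 values of 12.16, 12.39 and 12.29 in SE and 11.86, 11.87 and 11.66 in NE, and the 4 tested Rbbp7 probes were all called higher, by 0.48 to 0.51 (limma adjusted p = 0.00613 for the first named). Sap30, a Sin3-associated subunit, had 12.42, 12.42 and 12.39 in SE and 12.88, 12.86 and 12.83 in NE, a difference of -0.45 (limma adjusted p = 0.00174). Sin3a, the scaffold, was lower in SE by a smaller amount, with a difference of -0.26 (limma adjusted p = 0.0207), and lost its call without SE replicate 1 or 2 or NE replicate 1 or 2 (-0.26, -0.24, -0.25 and -0.26, limma adjusted p = 0.0522, 0.0614, 0.0578 and 0.0523). The other listed genes were not analysed here.

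All 12 genes of the Myc cofactor list, which are chromatin and elongation factors that Myc recruits, could be tested. None was higher, 3 were lower in SE and 9 did not pass, with a median of -0.024. The shares were 0% higher and 25% lower, where 18.7% and 21.6% of all genes were called. At an unadjusted p under 0.05 limma gave 2 as higher and 3 as lower. The lower genes were Ep400, an ATPase of the acetyltransferase complex (-0.37, limma adjusted p = 0.0272), Kat2a, the acetyltransferase GCN5 (-0.32, limma adjusted p = 0.0231), and Ccnt1, the cyclin of the elongation kinase (-0.30, limma adjusted p = 0.0323). In each of these the SE arrays lay below the NE arrays at the probe that stands for the gene. The other tested probes of Ep400 and Ccnt1 differed by -0.12 and -0.24 and were not called. Ruvbl1, a helicase subunit of the same complexes, did not pass (-0.04), while 1 of its 3 tested probes was called higher, at 0.29. The 2 with an unadjusted p under 0.05 on the other side were Kat5 (0.31, limma adjusted p = 0.0589) and Cdk9 (0.20, limma adjusted p = 0.0614). The count of lower genes was 0 without SE replicate 1 or NE replicate 3, 1 without SE replicate 2, SE replicate 3 or NE replicate 1, and 3 without NE replicate 2.

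The larger differences among the regulators lay in the enzymes that set the stability of the Myc protein. Of 13 tested genes of 15 listed, 2 were higher in SE, 4 were lower and 7 did not pass, with a median of -0.093. The shares were 15.4% higher and 30.8% lower, where 18.7% and 21.6% of all genes were called. Usp28, a deubiquitinase that stabilises Myc, had log2 values of 8.37, 8.39 and 8.17 in SE and 9.28, 9.25 and 9.17 in NE, a difference of -0.92 (standard error 0.087, 1.90-fold, limma adjusted p = 1.37e-04). Skp2 is an F-box protein that marks Myc and the cell cycle inhibitor p27 for degradation. Its raw signals were 82.0, 80.8 and 81.5 in SE, not far above background, and 114, 110 and 123 in NE. The log2 values were 5.39, 5.31 and 5.35 in SE and 6.20, 6.09 and 6.23 in NE. Their difference was -0.82 (standard error 0.076, 1.77-fold, limma adjusted p = 1.22e-04). Fbxw7, the F-box protein that degrades phosphorylated Myc, had 8.06, 8.06 and 8.11 in SE and 8.62, 8.61 and 8.94 in NE, a difference of -0.64 (limma adjusted p = 0.00223). Usp36, a nucleolar deubiquitinase of Myc, had 8.19, 8.17 and 8.10 in SE and 8.60, 8.72 and 8.67 in NE, a difference of -0.51 (limma adjusted p = 0.00140). The genes that were lower in SE thus include both enzymes that degrade Myc and enzymes that protect it. Stub1 and Trpc4ap, which also promote degradation of Myc, were higher in SE by 0.33 each (limma adjusted p = 0.0136 and 0.0230), but the tested probes of Trpc4ap ranged from -0.37 to 0.33 and those of Stub1 from -0.02 to 0.33, so that the probes of each gene disagreed. Gsk3b, the kinase that marks Myc for Fbxw7, did not pass (-0.09), while 1 of its 2 tested probes was called lower, at -0.53. The count of higher genes was 1 without SE replicate 2 or NE replicate 3. The other 2 listed genes were not analysed here, and Myc protein was not measured.

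**Figure D3:**
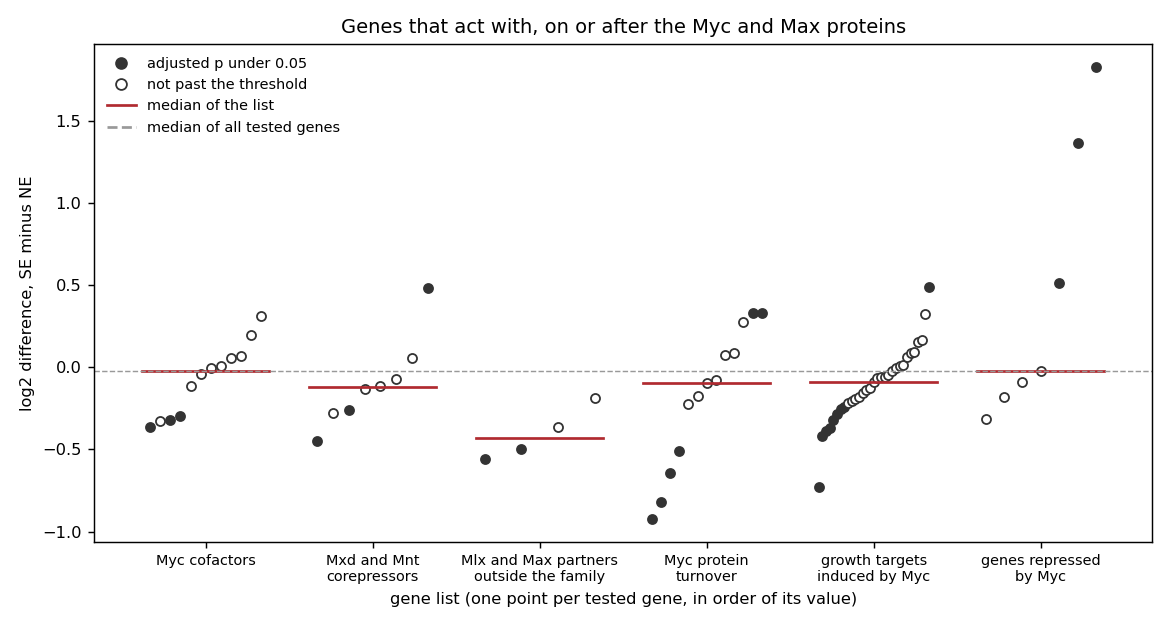
Log2 difference of SE minus NE for each tested gene of 6 gene lists, with filled points where the adjusted p was under 0.05, a red line at each list's median and a dashed line at the median of all tested genes (-0.021). The list of Mlx and Max partners, which also holds Mondo targets, has the lowest median (-0.43). The list of genes repressed by Myc holds the largest positive difference (Cdkn1a, 1.83).

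Of the growth genes that Myc is known to induce, 31 of 36 listed could be tested, 1 was higher in SE, 8 were lower and 22 did not pass. The shares were 3.23% higher and 25.8% lower, where 18.7% and 21.6% of all genes were called, and the median difference was -0.089. The nucleolar genes Ncl and Nolc1 were among those lower in SE. Ncl, which encodes nucleolin, had log2 values of 11.64, 11.63 and 11.68 in SE and 12.11, 12.01 and 12.09 in NE, a difference of -0.42 (standard error 0.072, limma adjusted p = 0.00292). Nolc1, a nucleolar phosphoprotein, had 5.57, 5.40 and 4.91 in SE and 6.26, 5.60 and 6.21 in NE, a difference of -0.73 with a wide standard error of 0.22 (limma adjusted p = 0.0348). Its call was lost without SE replicate 2 or 3 or NE replicate 1 or 3 (-0.78, -0.54, -0.61 and -0.63, limma adjusted p = 0.0690, 0.104, 0.102 and 0.101). Odc1, the entry enzyme of polyamine synthesis and a classic Myc target, had 13.26, 13.22 and 13.20 in SE and 13.61, 13.62 and 13.61 in NE, a difference of -0.39 (limma adjusted p = 0.00349).

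The other growth genes lower in SE were Ldha, Cad, Dkc1, Ddx21 and Rrp9, with differences between -0.37 and -0.24, and Dkc1 was detected on 1 SE array. The gene higher in SE was Tert, the catalytic subunit of telomerase, which had 5.11, 4.89 and 4.84 in SE and 4.43, 4.49 and 4.48 in NE. Tert was not detected on any NE array, so that its level there is only a bound. It was at least 1.11-fold higher in SE. It met the detection filter only through the 3 SE arrays, with detection p of 0, 0.0360 and 0.0389. Its limma adjusted p of 0.00443 is therefore no separate support, as the tissue where it is higher let it into the test. Among the genes that did not pass were the nucleolar genes Npm1 and Gnl3, with differences of -0.16 and -0.06. Of the others that did not pass, Ppan and Rcl1 each had 1 probe called higher (0.31 and 0.30) and Ubtf had 1 called lower (-0.31). With any 1 array left out, 3 to 6 growth genes were lower. They numbered 4 without SE replicate 1, SE replicate 2 or NE replicate 1. The count was 6 without SE replicate 3 or NE replicate 2, and 3 without NE replicate 3. With all 6 arrays, other settings gave 5 to 12 lower. None was higher without SE replicate 1, 2 or 3, because Tert then had too few detected arrays to be tested.

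Cdkn1a and Ndrg1, which Myc is known to repress, had the largest differences in these lists. Of the genes that Myc is known to repress, 7 of 9 listed could be tested. Of these, 3 were higher in SE, none was lower and 4 did not pass. The shares were 42.9% higher and 0% lower, where 18.7% and 21.6% of all genes were called. The median was -0.021, as over all genes. At an unadjusted p under 0.05, limma gave 1 as lower. Cdkn1a encodes the cyclin-dependent kinase inhibitor p21 and is also a p53 target. Its raw signals were 201, 205 and 192 in SE and 80.1, 91.8 and 93.7 in NE. The log2 values were 7.33, 7.35 and 7.35 in SE and 5.33, 5.63 and 5.60 in NE. The difference was 1.83 (standard error 0.097, 3.55-fold, limma adjusted p = 6.05e-06), and a second probe passed with 0.72. Ndrg1, a differentiation and hypoxia response gene, had raw signals of 127, 122 and 144 in SE and 69.1, 86.6 and 78.4 in NE. Its log2 values were 6.44, 6.35 and 6.80 in SE and 4.89, 5.49 and 5.12 in NE. The difference was 1.36 (standard error 0.17, 2.57-fold, limma adjusted p = 6.64e-04), and both of its probes passed. In NE both genes lay not far above background, and their folds are on the background-corrected scale. Pdgfrb, a receptor best known from mesenchyme, had log2 values of 5.28, 5.06 and 4.90 in SE. In NE it had 4.43, 4.67 and 4.59 and was not detected, so that it was at least 1.21-fold higher in SE. Pdgfrb met the detection filter only through the 3 SE arrays, with detection p of 0, 0.00545 and 0.0324. Its limma adjusted p of 0.0110 is therefore no separate support. The cephalic mesenchyme markers were also higher in SE (summed signal of 1637 to 2347 in SE and 375 to 515 in NE), and their part in the Pdgfrb difference was not tested, in tissue that the methods describe as free of cephalic mesenchyme. Gadd45a, a stress response gene, did not pass (-0.18), but 1 of its 2 tested probes was called lower, at -0.48. The inhibitor gene Cdkn1b, which encodes p27, differed by -0.32 and did not pass (limma adjusted p = 0.0744). Without SE replicate 1, 2 or 3, the count of higher genes was 2, because Pdgfrb then had too few detected arrays to be tested. Cdkn2b and Gas1 were not testable.

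**Figure D4:**
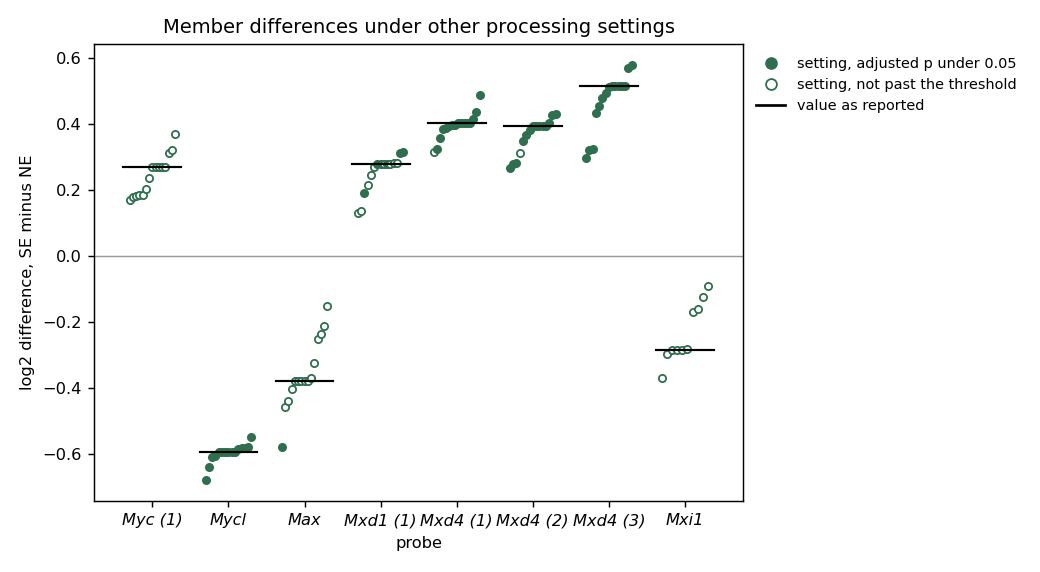
Log2 difference of SE minus NE of each tested member probe under the other processing settings, with filled points where the adjusted p was under 0.05 and a black line at the value reported here. Mycl stays between -0.68 and -0.55 and is filled throughout, Myc is open throughout (0.17 to 0.37), and Mxd1 is open in 9 of 15 settings.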

How the data were processed

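Biotin-labelled RNA of SE and NE was hybridised to 6 Illumina MouseWG-6 v2 arrays, and samples were grouped by their labels. The authors scanned and exported the arrays with BeadStudio (version not given in the sources used here). They deposited, for each probe, an unnormalized signal intensity (linear) with its detection p-value, computed by their software. They also deposited scaled intensity values, which equalled these signals times 1 constant per array (1.00, 1.01 and 1.07 for SE arrays 1, 2 and 3, and 0.993, 0.971 and 0.966 for NE arrays 1, 2 and 3), to a mean of 420.0, the largest deviation being 9.56e-05 percent. The column medians were 63.0, 64.5 and 69.2 for SE and 61.7, 61.8 and 62.8 for NE. These values had no log, centring or background subtraction and served as an alternative.

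Background correction and quantile normalization to log2 values used neqc of limma 3.58.1 (R 4.3.3) with an offset of 16. Probes entered the test if their detection p was under 0.05 on 3 or more arrays. The model (lmFit, eBayes) contained tissue only, SE minus NE, and Benjamini-Hochberg adjustment ran over 19590 probes. In counts and lists, a gene was represented by its probe of highest mean log2 value. A fold marked "at least" is a bound for a probe that no array of 1 tissue detected, set against the lowest level of detected probes. Names came from the platform annotation, updated by Entrez identifier for 34807 probes. Of all probes, 34885 had 1 symbol, 18 had several and 10378 had none, and the unnamed ones may include further member probes. The fit was checked on simulated data.

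Named genes are all members, up to 4 genes of each list with the largest differences past the threshold, and the 3 nearest profiles of each tested Myc gene. Stub1, Trpc4ap, Kat5, Cdk9, Arrdc4, Mga, Npm1, Gnl3, Cdkn1b, Rbbp4, Ruvbl1, Gsk3b, Ppan, Rcl1, Ubtf and Gadd45a, and the growth genes after the first 4, are outside this rule, and their values had been seen when they were named. The members, the lists and the tests were chosen with earlier results of these data known. Sequences are from RefSeq (GRCm38.p6), and the files name no genome build. The methods place an SE pool and an NE pool under each numbered replicate experiment, and the study compared SE with NE within each replicate. They do not say that a number marks a shared litter or day. Same-numbered arrays did not deviate together. The fit without the block was kept, and the paired form was run as an alternative, under which some calls were lost. The alternatives were other background corrections, offsets, scalings, detection filters, variance models, probe summaries, a block for replicate number and leaving out each array. Figures were made with matplotlib 3.10.9 (Python 3.11.15). The number of arrays, 3 per tissue, limits the precision.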

Additional observations from a re-analysis of the deposited data

How the results depend on the processing

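Mycl, the third Mxd4 probe, and the absence of a call for Myc and Mxi1 were the same under every alternative that could be run for them, and no result changed direction. Of the single probes and genes, 362 values stayed on their side of the threshold, 36 lost the call and 1 gained it. The count of members higher in SE was 1 with no background correction, an offset of 50 or trended robust variances, and 0 with median centring. Median centring also moved the share of calls that were lower in SE, which was 65.4% over all probes (2547 higher and 4817 lower) against 54.1% as reported (3352 higher and 3958 lower). With any 1 array left out, members higher numbered 1 to 2 and members lower 1 to 2, with Max as a second lower member without NE replicate 2.

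The cofactor list had 2 genes higher in SE with no background correction, an offset of 50 or the mean of a gene's probes, and 1 with the deposited scaled values, probes detected on all 6 arrays, no detection filter or trended variances. The turnover list had 0 higher with median centring and 1 with the mean of probes. The growth list had 2 higher with trended variances. It had 0 higher with probes detected on all 6 arrays or with a detection p under 0.01, an alternative chosen after seeing the data. Tert did not meet these filters, nor the filter with an SE array left out, so its loss was fixed in advance. Growth genes lower numbered 12 with trended variances and 9 with median centring. They were 10 with no background correction, an offset of 50 or the deposited scaled values. The count was 7 with either of those stricter filters, 6 with no detection filter and 5 with a replicate block. The list of repressed genes had 1 lower with median centring or the mean of probes. The cause of the other moves was not tested. With 1 array left out the ranges were 0 to 1 higher and 0 to 3 lower for cofactors, 1 to 2 lower for corepressors, 1 to 2 higher for turnover genes, 0 to 1 higher and 3 to 6 lower for growth genes and 0 to 1 lower for repressed genes, in fits with fewer samples. The difference in Myc minus Mycl was 0.73 to 0.95 with 1 array left out and 0.75 to 0.86 under the other settings.

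Same-numbered SE and NE arrays, which the methods place in the same replicate experiment, did not deviate together. Over probes, which are not independent replicates, r was -0.037, -0.031 and -0.020. This shows no shared deviation and does not exclude that same-numbered pools shared a litter or day. With a replicate block, 2978 probes were higher and 3529 lower, members higher numbered 1 (Mxd1 lost its call), corepressors lower 1 and growth genes lower 5. Mxd1 and Mxi1 lay near background, and Mycn, Mxd3, Mnt and Mlx cannot be compared at all.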
